A study of Mus musculus with 24 samples.

Results

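The precursors named mir-297, mir-466, mir-467 and mir-669 were taken by name from a table of 1187 mouse microRNA precursors. They numbered 82, with 6 named mir-297, 29 named mir-466, 17 named mir-467 and 30 named mir-669. RefSeq (GRCm38.p6) placed 72 of them inside Sfmbt2 on chromosome 2 and 10 elsewhere, so the common name of Sfmbt2 cluster held for 72 of the 82. Those 72 precursors carried 133256 of the 133635 counts of the 82 members in cells (99.7%) and 1633 of 1657 in vesicles (98.6%). The RNA was that of BV2 microglia, a mouse cell line grown as an immortal culture, and of extracellular vesicles (EVs) shed by the same line. Treatment lasted 72 h and was with 100 ng/mL of lipopolysaccharide (LPS), 50 ng/mL of interleukin-10 (IL-10) or 50 ng/mL of transforming growth factor β (TGF-β), beside untreated controls. Each of the 4 treatments gave 3 cell libraries and 3 EV libraries, which makes 24 libraries in 8 groups. Whether libraries of 1 group stem from separate cultures is not in the labels, so the p-values measure a spread between libraries that may be technical.

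Sfmbt2 encodes a Polycomb group protein and is imprinted in the mouse placenta. A large intron of the gene carries a tandem array of microRNA precursors that arose by repeated duplication in rodents, and many of the copies are near identical. The array is best known from placenta and pluripotent cells, and a microRNA acts by pairing its seed, bases 2 to 8, with messenger RNAs. RefSeq named no other gene inside Sfmbt2 besides the 72 members. The 10 members outside it were mir-466q, mir-466k and mir-669n on chromosome 3, mir-467g on chromosome 5, mir-297a-1 on chromosome 7, mir-467h on chromosome 9, mir-466j on chromosome 10, mir-467f on chromosome 11, and mir-466i and mir-466f-4 on chromosome 13.

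RefSeq mature sequences were matched for 8 members. The 5 of these with any count are printed 5′ to 3′ with the seed in capitals, to show the alternating ac and ug stretches that recur across subfamily names.
mir-467h: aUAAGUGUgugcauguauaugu
mir-466i (3p arm): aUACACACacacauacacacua
mir-467f: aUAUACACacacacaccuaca
mir-466k: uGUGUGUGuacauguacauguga
mir-466j: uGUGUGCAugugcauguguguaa
The 8 matched sequences had 8 different seeds and were 20 to 23 bases long. None of these 8 members lies inside Sfmbt2, and the 10 members outside it held 0.284% of the members' cell counts. Seeds of the abundant members of the array were not available here. In the 8 matched sequences, 50.0% (mir-467g) to 78.9% (mir-466q) of the pairs of adjacent bases were ac, ca, ug or gu. mir-467h and mir-467f carry the same family name and different seeds, as do mir-466i, mir-466k and mir-466j. mir-467h had 255 counts over the 12 cell libraries and 8 over the 12 EV libraries. mir-466i had 55 and 11, mir-467f had 0 and 4, and mir-466k and mir-466j each had 2 and 0.

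Totals ran from 185400 to 409969 counts per library in cells and from 15071 to 28727 in EVs. All 6 myeloid precursors listed for these cells (mir-223, mir-142a, mir-511, mir-146a, mir-155 and mir-342) had counts in cells, and mir-223 and mir-511 were at 0 in EVs. Most of the cell counts were of mir-146a (29916) and mir-142a (11206), and the others had 263 (mir-511) to 679 (mir-223). A list of 24 precursors typical of neurons, oligodendrocytes, liver, muscle, red cells or epithelium summed to 0.0123% to 0.0388% of each cell library and to 0.0193% to 0.813% of each EV library. In cells mir-128-1 and mir-128-2 of this list had 312 and 298 counts, above mir-155 (272) and mir-511. mir-6236, a precursor that is no member, took 0.574% to 1.63% of each cell library and 49.9% to 79.5% of each EV library. Every share of an EV library therefore moves with it. IL-10 EV library 1 and LPS EV library 3 stood apart from the other libraries of their groups in the share taken by members, with 1.00% and 2.17%.

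In cells the members together took several percent of all precursor counts, and least after LPS. Control cell libraries gave 5.00%, 3.59% and 4.12%, LPS libraries 2.92%, 2.88% and 3.06%, IL-10 libraries 4.05%, 3.16% and 3.75%, and TGF-β libraries 3.70%, 3.60% and 4.42%. The 3 LPS libraries lay below the other 9. The means were 4.24 ± 0.715% in controls and 2.95 ± 0.0905% after LPS (SD, n = 3 each). With each library scaled by its TMM factor the sums were closer, at 36665 ± 2743 normalised CPM (counts scaled to an equal library size, here by total and TMM factor) in controls and 34361 ± 522 after LPS. The 6 myeloid precursors, led by mir-146a, went from 0.444% to 0.506% of control cell libraries to 4.13% to 4.76% of LPS cell libraries, and the part of such other precursors in the lower share was not tested. In bulk samples of a cell line, a change in every cell and a change in part of the cells cannot be told apart.

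**Figure D1:**
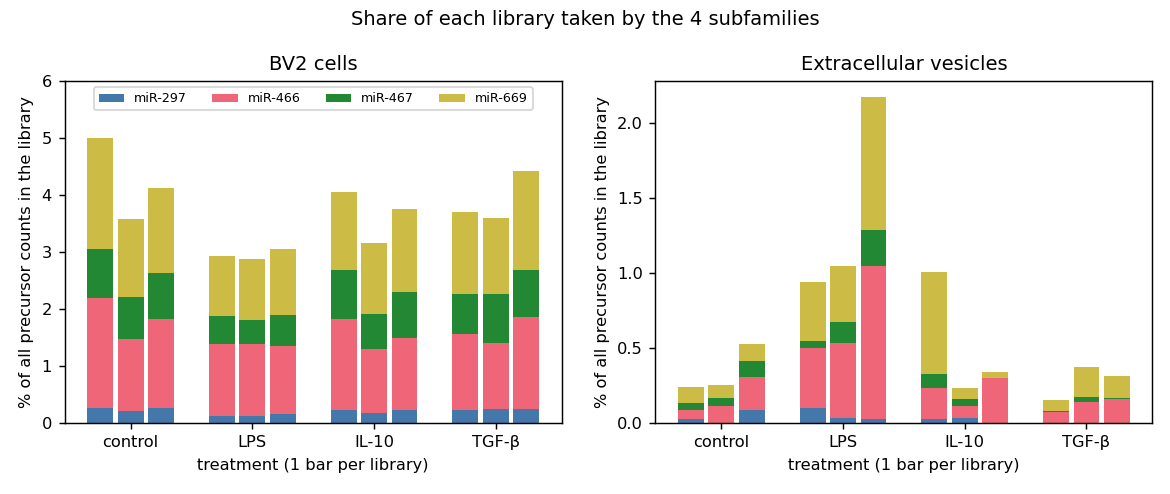
Each bar is 1 library and stacks the percent of all precursor counts taken by the mir-297, mir-466, mir-467 and mir-669 subfamilies, in BV2 cells (left) and EVs (right, other axis range). The 3 LPS cell libraries are the lowest of the 12 (2.88% to 3.06%), and LPS EV library 3 is the highest of the EV libraries (2.17%).

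The mir-466 and mir-669 precursors made up most of this output. Over the 12 cell libraries mir-669 gave 37.8% of the members' counts, mir-466 37.0%, mir-467 19.6% and mir-297 5.66%. In EVs the parts were 41.3%, 43.6%, 10.9% and 4.10%. Counts were found for 77 members in cells and 69 in EVs, and 4 were at 0 in both (mir-669g, mir-466q, mir-669n and mir-467g). In cells 68 members had a count in all 12 libraries. No member had one in all 12 EV libraries. The most widespread ones reached 11 EV libraries, and 40 members had a count in at least 6.

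The most abundant member was mir-669c, at a mean of 3327 normalised CPM over the 12 cell libraries, rank 33 of all precursors. The 3 mir-466c copies followed at 1188, 1186 and 1160 normalised CPM. mir-466b-8 stood at 877, mir-669o at 730, mir-669a-6 at 712 and mir-669a-12 at 710. The leading mir-467 members were mir-467a-1 at 582, mir-467a-6 at 582, mir-467a-4 at 576 and mir-467a-3 at 567 normalised CPM. The leading mir-297 members were mir-297b at 491, mir-297a-4 at 486, mir-297a-3 at 484 and mir-297c at 470. Values are per precursor. Divided by precursor length, which ran from 73 to 127 bases inside Sfmbt2, mir-669c was again first and the 3 mir-466c copies next.

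Levels differed along Sfmbt2. Numbered by position on the chromosome, members 1 to 12 had a median of 77.8 normalised CPM in cells and together 4537 of the members' 133635 cell counts. The next 4 blocks of 12 had medians of 570, 690, 688 and 692 normalised CPM. Members 61 to 72 had a median of 90.0. The middle of the array repeats a unit of a mir-467, a mir-466 and a mir-669 precursor in that order, which occurs 12 times between positions 13 and 52. The mir-466 precursor had the highest mean of its unit in 11 of the 12, and in 12 of 12 per base of precursor. Most units consist of numbered copies of mir-467a, mir-466b, mir-466c and mir-669a, which may share reads. The 12 units are therefore not separate observations, and levels of single copies may not reflect their position. The exception was the unit of mir-467a-10, mir-466b-3 and mir-669a-12, at 561, 681 and 710 normalised CPM.

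**Figure D2:**
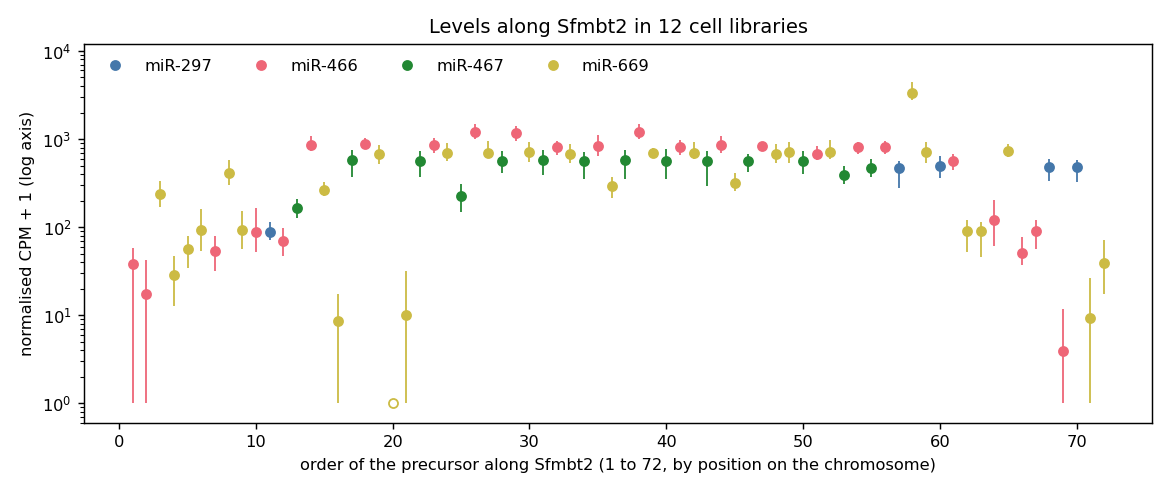
Points are the mean normalised CPM plus 1 over 12 cell libraries for each precursor in Sfmbt2, on a log axis, in order along the gene, and vertical lines run from the lowest to the highest library. mir-669c at position 58 stands highest at 3327 normalised CPM, members 1 to 12 have a median of 77.8, and the open circle is mir-669g with no count.

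Numbered copies were nearly equal within a library for mir-467a, mir-466c and mir-466b, and unequal for mir-669a, mir-466f and mir-297a. For each set of copies the variance across copies was divided by their mean count in each of the 12 cell libraries, a ratio that would be about 1 if reads fell on the copies at random. The median ratio was 0.746 for the 10 mir-467a copies (0.220 to 1.11) and 0.290 for the 3 mir-466c copies (0.0391 to 0.699). It was 1.93 for the 8 mir-466b copies (0.951 to 3.41). Copies of mir-669a, where mir-669a-3 stood at 264 normalised CPM, had a median of 8.47, copies of mir-466f 8.28, and those of mir-297a 85.8, where mir-297a-1 and mir-297a-2 were low. How the authors assigned reads that match several copies is not given in the sources used here. Calls on single copies of mir-467a and mir-466c are therefore not separate observations. The same limit applies to mir-669d and mir-669d-2, with 324 counts each over the cell libraries, and to mir-297a-3 and mir-297a-4, with 1810 and 1818. It also applies to the mir-669a copies other than mir-669a-3, which stood at 678 to 712 normalised CPM. If such reads were counted at every copy they match, the members' shares and summed levels hold them more than once, which was not tested.

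LPS was compared with control in cells to ask which members move with an inflammatory stimulus. A member passed when edgeR's quasi-likelihood test gave a Benjamini-Hochberg adjusted p under 0.05 over all 259 precursors tested, of which 67 were members. Of these 67, 6 were higher and 5 lower after LPS, where 20.8% of all tested precursors were higher and 11.2% lower. The members' median log2 change was -0.15, and that of all tested precursors 0.09. The subfamilies differed in their medians, at -0.37 for 5 mir-297, 0.17 for 22 mir-466, -0.34 for 15 mir-467 and -0.15 for 25 mir-669 members.

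The member with the largest fall was mir-466n. Control libraries held 164, 133 and 202 normalised CPM and LPS libraries 92.0, 82.4 and 59.8. All 3 LPS values lay below all 3 controls, and the log2 change was -1.08 ± 0.27 (SE, edgeR adjusted p = 0.00426). mir-297c went from 449, 517 and 525 normalised CPM to 337, 279 and 402, again with no overlap (log2 -0.54 ± 0.15, edgeR adjusted p = 0.0100). mir-467a-4 had 614, 580 and 646 in controls and 450, 393 and 386 after LPS (log2 -0.58 ± 0.15, edgeR adjusted p = 0.00479). mir-467a-8 fell by 0.46 ± 0.17 and mir-669f by 0.64 ± 0.18 on the log2 scale, with edgeR adjusted p of 0.0469 and 0.0109. The calls of mir-466n, mir-297c and mir-467a-4 held under each alternative that kept them among the tested, including each library left out. A mean of at least 50 counts left mir-466n untested. mir-669f was not called without LPS cell library 1 (edgeR adjusted p = 0.0502), and mir-467a-8 not without LPS cell library 2 (0.0804) or control cell library 3 (0.0869).

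Near the first end of the array lie 4 of the 6 members that were higher. They are mir-669d, mir-669l, mir-669d-2 and mir-466f-3, at positions 6, 8, 9 and 10. Among members 1 to 12, 11 were tested, with these 4 higher and mir-669f, at position 3, lower. The copies mir-669d and mir-669d-2 may share reads, so the 4 are not separate observations. An effect of position was not tested. mir-466f-3 had 79.4, 56.1 and 51.3 normalised CPM in controls and 107, 165 and 136 after LPS, without overlap (log2 1.11 ± 0.30, edgeR adjusted p = 0.00832). The other tested copy, mir-466f-2, was at a log2 of 0.06. Summed mir-466f was not called (log2 0.50 ± 0.34, edgeR adjusted p = 0.289). mir-669d had 52.0, 63.1 and 69.4 in controls and 92.0, 95.1 and 158 after LPS (log2 0.90 ± 0.29, edgeR adjusted p = 0.0218). Its copy mir-669d-2 rose by a log2 of 0.92 ± 0.29, mir-669l by 0.57 ± 0.18, mir-669p-1 by 0.59 ± 0.17 and mir-467e by 0.42 ± 0.16, with edgeR adjusted p of 0.0177, 0.0177, 0.00866 and 0.0452. None of these 6 calls held with library totals in place of TMM factors, where the median of all tested precursors moved from 0.09 to -0.32 and the members' split became 0 higher and 34 lower (11.6% and 39% of all tested precursors). The split under DESeq2's size factors was 5 and 18 (19.3% and 18.1%). All 6 higher calls were lost without control cell library 2, when 0 members were higher and 19 lower. That of mir-467e was lost with any 1 of the control or LPS cell libraries left out (edgeR adjusted p = 0.0579 to 0.260). The call total was 7 without control cell library 3 and 17 without LPS cell library 2. For these and later fits with a library left out, the share of all tested precursors called is not given here.

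**Figure D3:**
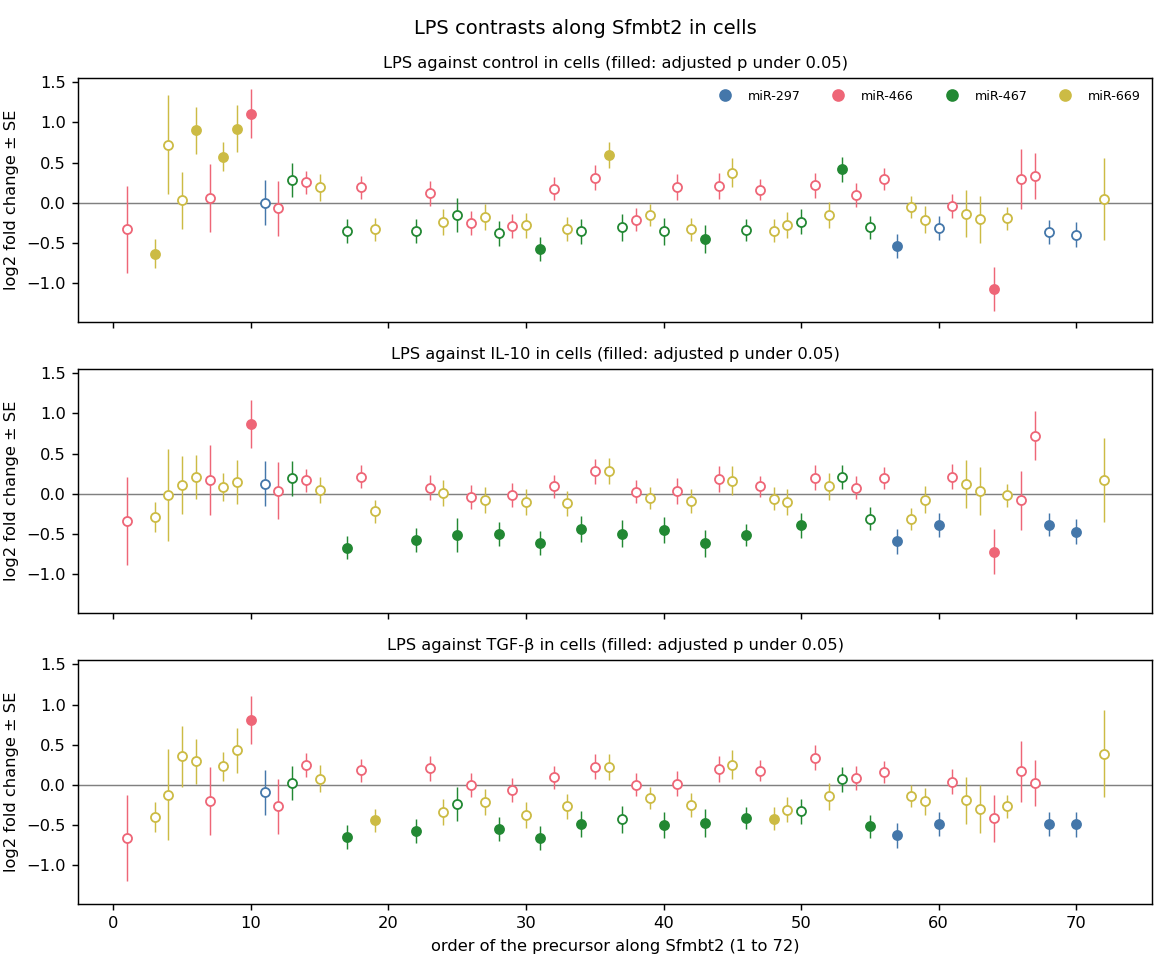
Each point is the log2 fold change of a tested precursor in Sfmbt2 in cells, with its SE, in order along the gene, for LPS against control, IL-10 and TGF-β. Filled points have an adjusted p under 0.05, and the 10 mir-467a copies and 4 mir-297 members lie below 0 in the lower panels.

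After IL-10 or TGF-β no member passed in cells. No member was called after IL-10 (6 of 67 at an unadjusted p under 0.05, with 7.72% of all tested precursors called by edgeR) and DESeq2's Wald test also called 0. The smallest p after IL-10 were those of mir-669d-2, at 65.7, 56.1 and 63.4 normalised CPM in controls and 95.7, 120 and 104 after IL-10 (log2 0.78 ± 0.26, edgeR adjusted p = 0.0694), and of mir-669l (0.49 ± 0.17, edgeR adjusted p = 0.0694). Neither pair of groups overlapped, and neither member passed. No member was called after TGF-β either (5 of 67 at an unadjusted p under 0.05, with 6.56% of all tested precursors called by edgeR), and DESeq2's Wald test called 0. mir-466n had 164, 133 and 202 normalised CPM in controls and 114, 122 and 81.5 after TGF-β (log2 -0.66 ± 0.23, edgeR adjusted p = 0.0889). It passed with numbered copies summed (log2 -0.72 ± 0.21, edgeR adjusted p = 0.0381). mir-467e was at 0.35 ± 0.15 (edgeR adjusted p = 0.146). Both comparisons share their control libraries with that of LPS.

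Set against either cytokine, LPS cells had lower mir-467a copies and mir-297 members. Against IL-10, 1 of 67 members was higher and 16 were lower in LPS cells, with 20.5% and 23.9% of all tested precursors higher and lower, so the share of members that were lower (23.9%) was the background share. The 16 were the 10 mir-467a copies, mir-467b, mir-297a-3, mir-297a-4, mir-297b, mir-297c and mir-466n. mir-467a-1 had 757, 618 and 668 normalised CPM after IL-10 and 373, 456 and 457 after LPS (log2 -0.67 ± 0.15, edgeR adjusted p = 0.00100). Against TGF-β, 1 was higher and 15 lower, with 18.1% and 13.9% of all tested precursors higher and lower. These 15 were 8 mir-467a copies, mir-467d, the same 4 mir-297 members, mir-669a-1 and mir-669a-10. mir-466f-3 was the 1 higher in both. It was not called against IL-10 without LPS cell library 2 (edgeR adjusted p = 0.152) or 3 (0.0595) or IL-10 cell library 3 (0.115), nor against TGF-β without LPS cell library 2 (0.235) or 3 (0.0994) or TGF-β cell library 2 (0.165) or 3 (0.0784). Summed mir-466f was called in neither (edgeR adjusted p = 0.184 and 0.297). The calls against IL-10 and TGF-β share the LPS libraries. The lower call was common to 12 members, of which 3 were also lower against control. How many of all tested precursors shared a lower call was not counted, so this overlap is not read as a trait of the members.

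With copies summed before the test, mir-467a was 1 feature. Its summed level was 5533, 5711 and 5854 normalised CPM in controls, 4604, 3796 and 4747 after LPS, 6901, 5616 and 6512 after IL-10, and 5770, 7166 and 5868 after TGF-β. The 3 LPS libraries were the lowest of the 12. The log2 change after LPS was -0.46 ± 0.12 against control, -0.53 ± 0.12 against IL-10 and -0.53 ± 0.12 against TGF-β, with edgeR adjusted p of 0.00832, 0.00299 and 0.00309. Summed mir-297a was lower in the same 3 comparisons (log2 -0.45 ± 0.13, -0.39 ± 0.13 and -0.49 ± 0.13, edgeR adjusted p = 0.0117, 0.0213 and 0.00662). Summed mir-466b was at 0.12 ± 0.15 against control and was not called (edgeR adjusted p = 0.593). The summed fits called 6 of 32 members lower against IL-10 and 5 of 32 against TGF-β, with 22.8% and 14.6% of all 206 features lower. Without LPS cell library 1, 10 single members were called in each of the comparisons with IL-10 and TGF-β. Against IL-10 the count was 9 without LPS cell library 2, 10 without LPS cell library 3, 11 without IL-10 cell library 1 and 10 without IL-10 cell library 3.

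The make-up of the members' own counts does not depend on the scaling between libraries. In it LPS cells lay narrowly apart for mir-467a and mir-466b, and overlapped with other groups for mir-669d and mir-297. mir-467a took 13.9%, 16.6% and 16.3% of the members' counts in control cells and 13.2%, 11.2% and 13.8% after LPS. After IL-10 it took 17.7%, 15.7% and 18.1%, and after TGF-β 15.5%, 19.3% and 15.1%. The LPS values lay below the other 9, the nearest being 13.8% and 13.9%. The 8 mir-466b copies took 20.9 ± 1.70% after LPS and 16.9 ± 0.955%, 17.4 ± 1.26% and 16.8 ± 0.861% in control, IL-10 and TGF-β cells (SD, n = 3 each), where the lowest LPS library (18.9%) and the highest IL-10 library (18.9%) lay side by side. The mir-669d copies took 0.338 ± 0.0375% in controls and 0.675 ± 0.199% after LPS, and 0.564 ± 0.0830% and 0.475 ± 0.108% after IL-10 and TGF-β. Their LPS libraries (0.542% to 0.904%) overlapped with the IL-10 (0.477% to 0.643%) and TGF-β libraries (0.353% to 0.559%). All mir-297 members took 4.23% to 5.26% after LPS and 5.03% to 6.21% in controls, which overlapped. The shares sum to 100% and depend on each other.

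**Figure D4:**
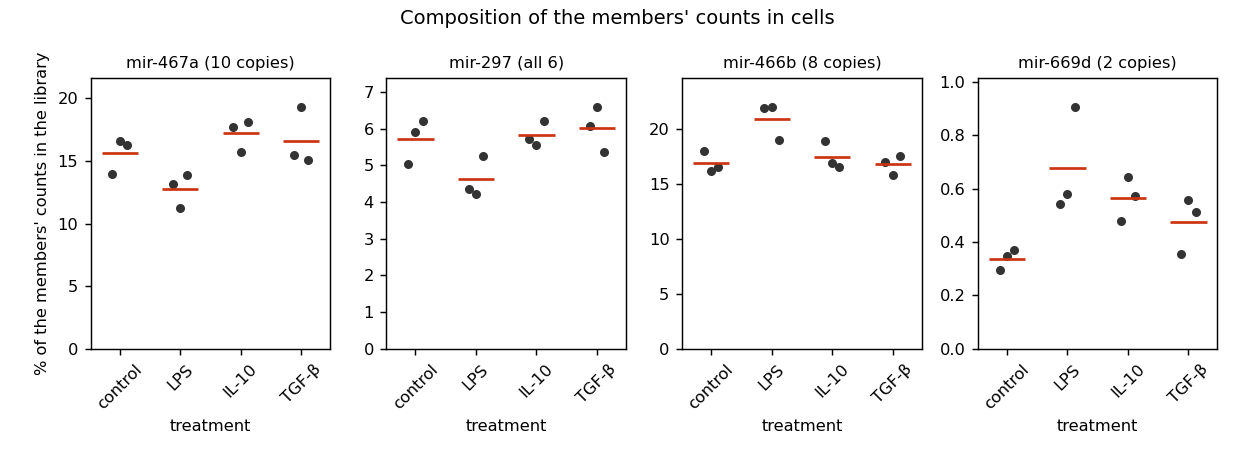
Points are the percent of the members' counts taken by the mir-467a copies, all mir-297 members, the mir-466b copies and the mir-669d copies in each cell library, and red lines are group means of 3 libraries. The mir-467a points after LPS (11.2% to 13.8%) lie below those of the other 9 libraries.

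In EVs the members took a smaller share of counts than in cells in every treatment, and their share was highest on average after LPS. Control EV libraries gave 0.239%, 0.250% and 0.526%, LPS EV libraries 0.940%, 1.04% and 2.17%, IL-10 EV libraries 1.00%, 0.234% and 0.340%, and TGF-β EV libraries 0.149%, 0.373% and 0.312%. The 3 LPS EV libraries lay above the control and TGF-β EV libraries and overlapped with IL-10 EV library 1. The mean share in cells was 12.5 times that in EVs in controls, 2.13 times after LPS, 6.94 times after IL-10 and 14.0 times after TGF-β. With mir-6236 left out of the totals the ratios were 3.23, 0.953, 2.08 and 3.89. LPS EV libraries also had the most counts (23943 to 28727) and a mean of 57.2 ± 7.82% mir-6236, against 74.5 ± 1.17% in control EVs. The 24 precursors of other cell types were at 0.168% to 0.813% of control EV libraries and 0.0193% to 0.0661% of LPS EV libraries. The part of depth, mir-6236 and these precursors in the difference was not tested.

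As a single precursor, only mir-669c had enough EV counts to be tested between EV treatments. It had 8, 4 and 7 counts in control EV libraries, 21, 47 and 22 in LPS, 82, 0 and 3 in IL-10, and 4, 23 and 17 in TGF-β EV libraries. A single IL-10 EV library, library 1, held 82 of the 85 counts of its group. With edgeR the log2 changes against control EVs were 0.54 ± 1.08 for LPS, 1.55 ± 1.10 for IL-10 and 1.53 ± 1.11 for TGF-β, with adjusted p of 0.765, 0.736 and 0.700. Without IL-10 EV library 1 the change after IL-10 turned to -1.32 (edgeR adjusted p = 0.623). Without LPS EV library 3 that after LPS was 0.87. None was called, nor had any an unadjusted p under 0.05, and DESeq2's Wald test called none. Among all 71 precursors tested in EVs, 18.3%, 0% and 4.23% were called. With copies summed, mir-466b, mir-669a, mir-467a and mir-466c could also be tested in EVs, and none was called against control after LPS, IL-10 or TGF-β (20.3%, 0% and 0% of 69 features called). Summed mir-467a had 3, 8 and 17 counts in control EVs and 0, 3 and 0 in TGF-β EVs, the highest TGF-β value being equal to the lowest control. Its log2 change was -2.82 ± 1.30 (unadjusted p = 0.0470 and adjusted p = 0.648 by edgeR), the 1 value of these sums at an unadjusted p under 0.05. Summed mir-669a had 8, 10 and 12 counts in control EVs and 21, 36 and 167 in LPS EVs (log2 0.85 ± 0.77, edgeR adjusted p = 0.512).

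EVs were set against cells within each treatment in 1 fit over the 24 libraries, in which 59 members were tested among 280 precursors. In controls 0 members were higher in EVs and 10 lower, with 26.1% and 12.5% of all tested precursors higher and lower. After LPS 5 were higher and 1 lower (21.1% and 9.64%). After IL-10 it was 0 and 10 (27.5% and 15.7%), and after TGF-β 0 and 18 (25.4% and 17.9%). The split depended on the scaling. In the order control, LPS, IL-10 and TGF-β, DESeq2's size factors gave 0, 5, 2 and 1 members higher, where 28.6%, 25%, 29.6% and 27.9% of all tested precursors were higher, and 1, 0, 0 and 0 lower, where 2.86%, 5.71%, 3.21% and 4.64% were lower. Library totals gave 0, 2, 0 and 0 members higher (19.6%, 12.1%, 18.9% and 16.8% of all tested precursors) and 56, 35, 54 and 58 lower (60.7%, 42.1%, 59.3% and 58.2%). The 5 members higher in LPS EVs were mir-466h, mir-466d, mir-669d, mir-669d-2 and mir-466f-3, and mir-467a-10 was lower (log2 -1.75 ± 0.64, edgeR adjusted p = 0.0399). That lower call was lost without LPS cell library 1 (edgeR adjusted p = 0.103) or 2 (0.0888) and without LPS EV library 2 (0.0669) or 3 (log2 -0.997, 0.259), and summed mir-467a was not called (0.0592).

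mir-466h had the largest EV excess after LPS. Its counts were 0, 0 and 0 in control EVs, 3, 17 and 16 in LPS EVs, 1, 0 and 0 in IL-10 EVs and 0, 0 and 0 in TGF-β EVs. As shares these LPS counts were 0.0125%, 0.0592% and 0.0619% of the EV libraries, and the LPS cell libraries gave 0.00770% to 0.0107%. All 3 LPS EV libraries lay above the LPS cell libraries. The log2 difference between LPS EVs and LPS cells was 3.57 ± 0.48 (edgeR adjusted p = 5.07e-06), and the call held under each alternative that kept it among the tested. The difference was 2.32 with library totals and 2.78 without LPS EV library 2, and a mean of at least 50 counts left it untested. In control EVs a count of 0 allowed up to 0.00601% of all counts, or 0.0235% with mir-6236 left out of the totals. mir-466h took 0.00941% of control cell counts, between these limits, so no difference between control EVs and cells could be read.

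mir-466d had 0, 1 and 0 counts in control EVs and 5, 20 and 25 in LPS EVs, with 1, 1 and 0 after IL-10 and 0, 0 and 0 after TGF-β. In LPS EVs it was 0.0624 ± 0.0384% of counts and in LPS cells 0.0499 ± 0.00213% (SD, n = 3 each), and the LPS EV libraries ran from below to above the cell range. The log2 difference was 1.55 ± 0.36 with TMM factors (edgeR adjusted p = 0.00202). It was 0.34 and not called with library totals (edgeR adjusted p = 0.458), and not called without LPS EV library 2 (0.0661). mir-669d and mir-669d-2 together had 30, 7 and 2 counts in LPS EVs and 0 in the other 9 EV libraries. Their log2 differences in LPS EVs were 2.76 ± 0.67 and 2.50 ± 0.67 (edgeR adjusted p = 0.0034 and 0.00733), and without LPS EV library 1 the edgeR adjusted p were 0.519 and 0.783. mir-466f-3 had 0, 8 and 11 counts in LPS EVs (log2 2.21 ± 0.64, edgeR adjusted p = 0.0113) and was not called without LPS EV library 2 (0.108) or 3 (0.128). The test of whether the LPS effect differed between EVs and cells called 3 of the 59 members, mir-466d, mir-466h and mir-669a-6, with 6.07% of all tested precursors called.

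**Figure D5:**
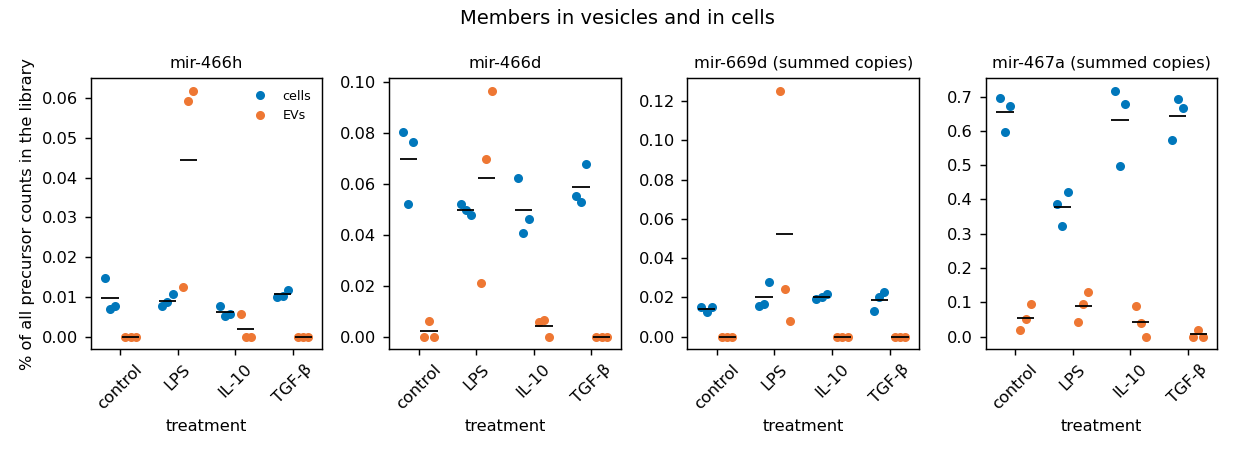
Points are the percent of all precursor counts in each library taken by mir-466h, mir-466d, the 2 mir-669d copies and the 10 mir-467a copies, in cells (blue) and EVs (orange), with group means of 3 libraries as lines; vertical ranges differ. mir-466h and mir-669d reach their highest shares in LPS EV libraries, and the mir-467a share is lower in EVs than in cells in every treatment.

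The lists of members called lower in EVs differed between treatments and were read from few counts. Differing lists are no test of a treatment difference. The test of whether a treatment effect differed between EVs and cells called 0 of 59 members for IL-10 and 0 of 59 for TGF-β. For LPS it called 3 of 59 members and 17 of 280 precursors. Of the 59 tested members, 13 were at 0 in all control EV libraries, 3 in LPS, 14 in IL-10 and 25 in TGF-β EVs. For these a floor of 3 counts over the group gave cell levels at least 1.16-fold to 14.2-fold higher in controls, the largest being mir-669a-6, and at least 1.26-fold to 12.1-fold higher with TGF-β, the largest being mir-669a-9. Both are among the 12 mir-669a copies, which may share reads and together had 30 counts in control EVs and 15 in TGF-β EVs. A 0 of a single copy is therefore not a separate observation. With mir-6236 left out of the totals, 5 of the 13 in controls and 15 of the 25 with TGF-β kept a bound above 1, at most 3.66-fold and 3.23-fold. In control EVs mir-669o had 1 count against 861 in cells, a ratio of 43.5 with an exact 95% counting interval of 7.79 to 1720, and 11.2 without mir-6236. TGF-β EVs held no count of any mir-297 member in 3 libraries, where TGF-β cells had 2144 counts (0.233% of counts). The EV share is thus at most 0.00630%, and the cells were at least 37.0-fold higher, or 9.87-fold with mir-6236 left out of the totals. The mir-467 members had 1, 5 and 1 counts in TGF-β EVs, and the 10 mir-467a copies 0, 3 and 0. The mir-466 and mir-669 members had 58 and 66 counts over the same 3 libraries. The 3 mir-466c copies together had 1, 7 and 22 counts in TGF-β EV libraries 1, 2 and 3, so most came from library 3. As shares of counts over the group, mir-466c-1, mir-466c-2 and mir-466c-3 were 5.06, 5.60 and 6.26 times higher in TGF-β cells, and 1.35, 1.49 and 1.67 times without mir-6236. With TMM factors their median log2 difference was 0.01 and none was called. Intervals and floors cover counting error only, since reads carry no molecular identifiers.

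Other large microRNA clusters that placenta or pluripotent cells share with the Sfmbt2 array were close to 0 in cells. Of 9 precursors of the mir-290 to mir-295 cluster, 1 had counts in cells (2 counts in all 12 libraries) and 5 in EVs (27 counts). Of 53 precursors of the imprinted Dlk1-Dio3 cluster, 9 had counts in cells (13 counts) and 32 in EVs (126 counts). None of these precursors had enough counts to be tested. The corresponding counts of the members were 133635 and 1657.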

How the data were processed

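BV2 cells and their EVs were measured by small RNA sequencing, with RNA from miRNeasy kits, SMARTer smRNA-seq libraries and 18 PCR cycles, per the labels. The deposited tables hold whole counts of reads per precursor, not normalized by the authors. Not given in the sources used here are the aligner, annotation, build and handling of reads that match several copies. The submitters' processing notes name DESeq2. Of 8 tables, 6 were used, and the control columns of a compartment were counted once. Library columns give the group and a number from 1 to 3, which the labels tie to no sample or culture, and libraries carry that number as a name only. EdgeR 4.0.16 (R 4.3.3, limma 3.58.1) used TMM factors, filterByExpr (minimum count 10), its two-sided quasi-likelihood test and Benjamini-Hochberg adjustment over all precursors tested. One fit covered the 12 cell libraries (259 precursors tested), another the 12 EV libraries (71), and another all 24 (280, EVs against cells). SE come from the F statistic. Residual degrees of freedom were 8, 8 and 16. Normalised CPM used each compartment's factors. The members, the lists and the rule for named members were chosen with earlier results of these data known. The rule takes the 4 highest members of each subfamily in cells, up to 6 called members in each direction per comparison, or the 2 smallest p where none was called, and the 5 with most EV counts. Members outside it, such as mir-467b, are named to complete a list. Alternatives were DESeq2's size factors, library totals, no filter, a mean of at least 50 counts, copies summed, DESeq2 1.42.0, only the groups compared, each library left out and mir-6236 left out of shares. Leaving mir-6236 out of the ratios and limits for EVs was added after seeing the data. The fits were run on simulated data with known changes, drawn with a spread between libraries close to that of the cell libraries. The common dispersion, edgeR's measure of that spread, was 0.0181 in cells, 0.374 in EVs and 0.0763 over all 24 libraries. The simulated EV data were thus less noisy than the real ones and cannot show how the fits perform on EVs. Where a count is 0, 3 counts were taken as the limit. RefSeq positions (GRCm38.p6) were used for names and order only. Figures were drawn with matplotlib 3.10.9.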

Additional observations from a re-analysis of the deposited data

Results flagged for a closer look

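The interaction term of the edgeR fit over 24 libraries called 3 of 59 members (5.08%) for a different LPS effect in EVs and in cells, near the background of 17 of 280 precursors (6.07%). mir-466d had 0, 1 and 0 counts in control EVs and 5, 20 and 25 in LPS EVs, while in cells it had 233, 213 and 221 counts and then 122, 92 and 99. The log2 LPS effect in EVs minus that in cells was 4.47 ± 1.04 (edgeR adjusted p = 0.00903). mir-466h went from 0, 0 and 0 to 3, 17 and 16 counts in EVs and from 43, 28 and 22 to 18, 16 and 22 in cells. The fitted difference was 10.38 (edgeR adjusted p = 0.0314). mir-669a-6 went from 0, 0 and 0 to 2, 4 and 16 counts in EVs and from 332, 285 and 228 to 108, 103 and 121 in cells, with a fitted difference of 10.20 (edgeR adjusted p = 0.0314). The values of mir-466h and mir-669a-6 rest on control EVs at 0 and give no size of effect. mir-669a-6 is 1 of 12 mir-669a copies, which summed had 8, 10 and 12 counts in control EVs and were not called in EVs after LPS (edgeR adjusted p = 0.512). LPS EV libraries were also deeper and held less mir-6236, and the part of either was not tested. The same term for IL-10 and TGF-β called 0 of 59 members and 0 of 280 precursors.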

How the results depend on the processing

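Of 702 values of named members under the alternatives, 542 kept their direction and side of the threshold, 154 lost the call, 5 gained one and 1 turned: mir-669c after IL-10 in EVs, at -1.32 without IL-10 EV library 1 and up to 1.99 with others left out. Numbers of members called moved as follows, and the cause was not tested. The number of all precursors called also moved with the scaling. These numbers therefore describe the fits and are not read as a trait of the members. For LPS against control in cells (11), DESeq2's size factors gave 23, library totals 34, no filter 25, a mean of at least 50 counts 18, DESeq2's Wald test 17 and the 2 groups alone 19, and leaving out 1 library gave 7 to 19. For TGF-β against control in cells (0), DESeq2's size factors, library totals, no filter and summed copies gave 1 each (mir-466n), and leaving out 1 library 0 to 1. Summed copies, with fewer features tested, gave 6 for LPS against IL-10 (17) and 5 for LPS against TGF-β (16). In that fit against IL-10, mir-467b was no longer called (edgeR adjusted p = 0.0606) and mir-669c was called lower (0.0320). Leaving out 1 library gave 9 to 13 and 10 to 16. For EVs against cells in controls (10) size factors gave 1, library totals 56, no filter 16, a mean of at least 50 counts 0, DESeq2's Wald test 1 and the 2 groups alone 1, and 2 to 24 with a library left out. After LPS (6) library totals gave 37, a mean of at least 50 counts 1, and 2 to 7 with a library left out. After IL-10 (10) size factors gave 2, library totals 54, a mean of at least 50 counts 0, DESeq2's Wald test 2, the 2 groups alone 3, and 4 to 22 with a library left out. After TGF-β (18) size factors gave 1, library totals 58, no filter 36, a mean of at least 50 counts 0, summed copies 11, DESeq2's Wald test 1, and 12 to 32 with a library left out. Of 160 shares, 23 moved beyond 1 SD, 20 of them EV shares without mir-6236. No paired analysis was possible because the labels tie the numbers of the library columns to no sample, culture or day. A mean of at least 50 counts left no member in EVs, and fits of 2 groups alone gave no value for mir-669c after IL-10 and TGF-β in EVs. EV libraries of 15071 to 28727 counts limit what can be seen there: a count of 0 allows 0.0104% to 0.0199% of a library.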
